A study of Homo sapiens with 6 samples.

Results

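The members described here are 23 small Cajal body RNA genes, all with symbols that start with SCARNA, among 14884 genes with a named array row. The rule took every gene whose symbol starts with SNORA, SNORD or SCARNA and is not a host gene. It found 0 rows named SNORA or SNORD, so nucleolar RNAs of either box class are not analysed here and the members are called Cajal body RNAs. Each of the 23 had 1 row. The RefSeq gene table lists 29 SCARNA genes, and the 6 without a named row are not analysed here.

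Cajal body RNAs are guide RNAs that gather in the Cajal body, a nuclear compartment where small nuclear RNAs of the spliceosome mature. A box C/D guide directs 2'-O-methylation and a box H/ACA guide directs pseudouridylation, each by pairing with its target RNA, and a few Cajal body RNAs hold both kinds of domain. Most human members lie inside an intron of another gene and are released when that intron is processed, whereas a few are made from genes of their own. No file used here holds the sequences of these RNAs, so none is printed.

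The cells were clones of H9, a human embryonic stem cell line, each transduced with 1 of 3 lentiviral vectors with an EF1α promoter and an IRES-eGFP reporter. CTRL clones carried the reporter vector alone, gamma_ON clones carried H2A.X with the substitution S139E, and gamma_OFF clones carried H2A.X with T136 and S139 both replaced by alanine. All clones were sorted for GFP and a surface antigen of pluripotent cells, expanded from single colonies on mouse embryonic fibroblasts, and grown with 8 ng/ml bFGF; the labels name no deletion of the cells' own H2A.X gene and no vector with unaltered H2A.X. Total RNA of 2 samples per group was hybridised, 1 array per sample. The labels do not say whether the 2 samples of a group are separate clones, so each p-value rests on differences between samples that may be technical replicates.

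All values are log2 array signals. The number of arrays limits the precision. H2AX had 0 named rows, so the labels could not be checked on the transgene's own gene. Of 11 measured pluripotency markers, 9 lay at or above the 93.5 percentile of all genes, while POU5F1 lay at 62.1 and NANOG at 40.4; their mean signal was 10.16 to 10.28 in CTRL, 10.37 to 10.43 in gamma_ON and 10.44 on both gamma_OFF arrays, and POU5F1 rose in gamma_ON and DNMT3B in gamma_OFF. The mean signal of 9 endoderm markers was 7.62 to 7.86 in CTRL, 8.75 to 8.81 in gamma_ON and 7.55 to 7.63 in gamma_OFF. In gamma_ON 3 of them rose: AFP by 4.37, the largest rise of all genes, APOB by 2.38 and TTR by 1.38. In gamma_OFF AFP rose by 1.02, and GATA6 and TTR fell by 0.56 and 0.96. The mean of 4 measured fibroblast markers was 8.04 to 8.19, 8.20 to 8.25 and 7.74 to 7.88 in the same order of groups, and that of 5 neuroectoderm markers 7.47 to 7.66, 7.30 to 7.33 and 7.38 to 7.39. The fibroblast marker TAGLN fell in gamma_ON (-0.62, limma adjusted p = 0.0304) and in gamma_OFF (-0.55, adjusted p = 0.0235), and the neuroectoderm marker ZIC1 fell in both (-0.64, adjusted p = 0.0488, and -0.67, adjusted p = 0.0201). The fibroblast marker LUM was higher in gamma_ON than in gamma_OFF (1.10, adjusted p = 0.026). Whether these shifts play a part in the results below was not tested. Gamma_OFF replicate 2 had the narrowest spread of signal over all genes, with an SD of 1.64, and the SD of the other arrays was 1.70 to 1.81.

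The 23 members spanned much of the array's range. Their mean signal over 6 arrays ran from 4.26 for SCARNA15 to 10.88 for SCARNA17, with a median of 7.32, against a median of 7.12 for all genes. By guide type, 5 members were box C/D (SCARNA2, SCARNA7, SCARNA9, SCARNA9L and SCARNA17), 4 were mixed (SCARNA5, SCARNA6, SCARNA10 and SCARNA12), 13 were box H/ACA and SCARNA27 was not assigned. The types were taken from RefSeq synonyms and general knowledge. Box C/D members were 330 to 421 bases long with a median signal of 8.26, mixed members 266 to 330 bases with 7.92, and box H/ACA members 125 to 187 bases with 6.32. The signal of a row depends on its probes, so these medians describe array signal and not amounts of RNA. SCARNA17 stood at the 98.8 percentile of all genes, SCARNA12 at 97.4 and SCARNA22 at 95.8, while SCARNA15, SCARNA23 and SCARNA14 stood at 6.09, 7.67 and 8.87.

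**Figure D1:**
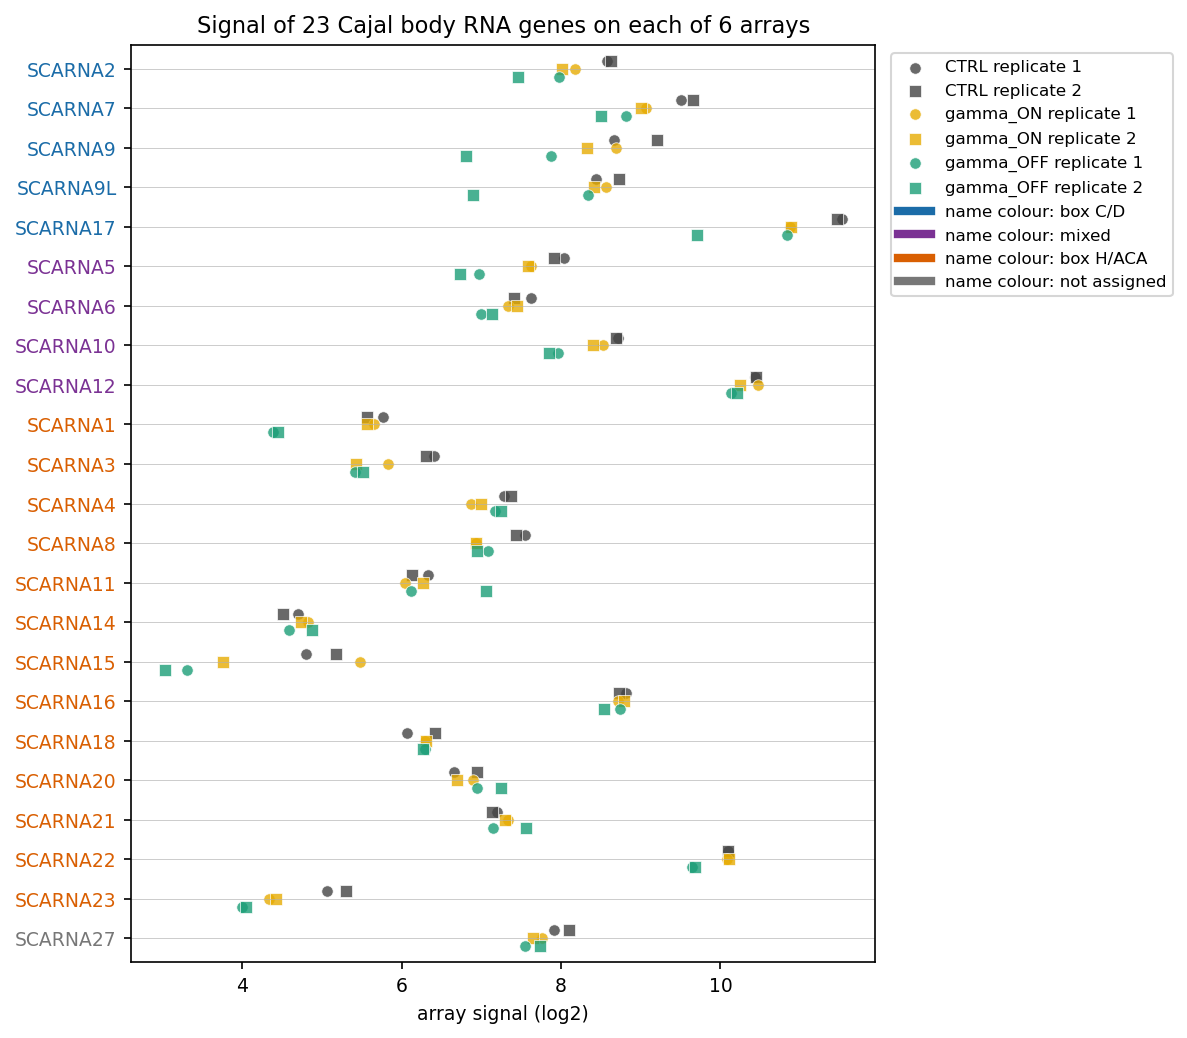
Array signal (log2, horizontal axis) of each of 23 Cajal body RNA genes on 6 arrays; grey, yellow and green mark CTRL, gamma_ON and gamma_OFF, circles and squares mark replicates 1 and 2, and the colour of a name gives the guide type. The gamma_OFF arrays lay below both CTRL arrays for 17 of the 23 members.

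The comparison of gamma_OFF with CTRL addressed added H2A.X with T136 and S139 both replaced by alanine, so that S139 cannot be phosphorylated. Since CTRL carried the reporter alone, added H2A.X and its substitutions cannot be told apart in this comparison. Signals of 12 of the 23 Cajal body RNAs fell in gamma_OFF, none rose, and 11 missed the threshold (limma, adjusted p under 0.05 over all genes; 0 higher also at an unadjusted p under 0.05). Over all genes 8.85% were called, 6.08% lower and 2.77% higher. The median log2 difference of the members was -0.48, against 0.01 for all genes. Both gamma_OFF arrays lay below both CTRL arrays for 17 of 23 members, as they did for 30.2% of all genes, and above them for 0 members, against 31.1% of all genes. In bulk RNA, fewer cells that hold an RNA and less of it per cell cannot be told apart.

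The box C/D guides were lower in gamma_OFF throughout: 4 of 5 fell, and the gamma_OFF arrays lay below both CTRL arrays for all 5, with a median of -0.96. SCARNA17, also called U91 and the brightest member, read 11.52 and 11.46 in CTRL, 10.87 and 10.89 in gamma_ON and 10.83 and 9.71 in gamma_OFF. It fell by 1.22 (SE 0.29, adjusted p = 0.0377) in gamma_OFF, and the replicates there differed by more than those of the other groups. SCARNA9, by its RefSeq synonym a methylation guide for U2, read 8.67 and 9.20 in CTRL, 8.69 and 8.32 in gamma_ON and 7.87 and 6.81 in gamma_OFF. It fell 3.03-fold (log2 difference -1.60, SE 0.31, adjusted p = 0.021). SCARNA9L, a SCARNA9-like gene by its name, read 8.44 and 8.73 in CTRL, 8.56 and 8.41 in gamma_ON and 8.34 and 6.90 in gamma_OFF. Its difference of -0.96 (SE 0.36) did not pass, at an adjusted p of 0.115, and it was -0.24 without gamma_OFF replicate 2 and -1.68 (adjusted p = 0.0037) without gamma_OFF replicate 1. Since SCARNA9 and SCARNA9L are close copies, their separate values are uncertain.

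SCARNA7 and SCARNA2 changed with less difference between the gamma_OFF arrays. SCARNA7, or U90, read 9.51 and 9.66 in CTRL, 9.06 and 9.0 in gamma_ON and 8.81 and 8.50 in gamma_OFF, and fell by 0.93 (SE 0.14, adjusted p = 0.00851). SCARNA2 is also a methylation guide for U2 by its synonym and lies inside no other gene of the RefSeq table. It read 8.57 and 8.62 in CTRL, 8.17 and 8.01 in gamma_ON and 7.98 and 7.46 in gamma_OFF, and fell by 0.88 (SE 0.17, adjusted p = 0.0201). In both genes the 3 groups did not overlap, with CTRL highest and gamma_OFF lowest. Calls of these box C/D guides depended on single arrays. Without CTRL replicate 1 the adjusted p was 0.145 for SCARNA17, 0.0512 for SCARNA9 and 0.0961 for SCARNA2, and without CTRL replicate 2 it was 0.15, 0.132 and 0.12, with 0.0732 for SCARNA7. Without gamma_OFF replicate 2 it was 0.066 for SCARNA9, whose difference was then -1.07, and 0.0539 for SCARNA2. Without either gamma_ON array it was 0.0684 for SCARNA17.

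Of the 4 guides with both kinds of domain, SCARNA5 and SCARNA10 fell in gamma_OFF and SCARNA6 and SCARNA12 did not pass. SCARNA5, or U87, read 8.04 and 7.91 in CTRL, 7.62 and 7.59 in gamma_ON and 6.97 and 6.73 in gamma_OFF. It fell 2.18-fold (log2 difference -1.13, SE 0.13, adjusted p = 0.00433) and was called whichever array was left out. SCARNA6, or U88, lies inside the same gene as SCARNA5, ATG16L1, and read 7.62 and 7.41 in CTRL, 7.34 and 7.45 in gamma_ON and 7.0 and 7.13 in gamma_OFF. Its difference was -0.45 (SE 0.13, adjusted p = 0.06). SCARNA10, or U85, which guides both modifications on U5, read 8.72 and 8.69 in CTRL, 8.52 and 8.40 in gamma_ON and 7.96 and 7.85 in gamma_OFF. It fell by 0.80 (SE 0.12, adjusted p = 0.00848, and 0.0657 and 0.061 without CTRL replicate 1 or 2). SCARNA12, or U89, stood at 10.43 and 10.44 in CTRL and 10.13 and 10.21 in gamma_OFF, a difference of -0.27 (SE 0.12, adjusted p = 0.184).

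The 13 box H/ACA guides were split: 6 members fell in gamma_OFF, none rose, and the other 7 missed the threshold, with a median of -0.13. SCARNA1, or ACA35, read 5.77 and 5.56 in CTRL, 5.65 and 5.57 in gamma_ON and 4.39 and 4.45 in gamma_OFF. The gamma_OFF arrays stood clear of the other 4, and SCARNA1 fell 2.38-fold (log2 difference -1.25, SE 0.12, adjusted p = 0.00307). SCARNA23, or ACA12, read 5.06 and 5.30 in CTRL, 4.33 and 4.42 in gamma_ON and 4.0 and 4.04 in gamma_OFF, and fell 2.24-fold (log2 difference -1.16, SE 0.12, adjusted p = 0.00372). Both were called whichever array was left out. With SCARNA5 they were the only called members for which this held. Here and below, a comparison of 2 groups is the same fit whichever array of the remaining group is left out.

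The other box H/ACA guides that fell did so by unequal amounts. SCARNA15, or ACA45, a guide from which Argonaute-bound small RNAs have been described, was the dimmest member and read 4.80 and 5.17 in CTRL, 5.48 and 3.76 in gamma_ON and 3.30 and 3.03 in gamma_OFF. Its fall of 3.54-fold in gamma_OFF (log2 difference -1.82, SE 0.43, adjusted p = 0.0382) came with a gap of 1.72 between the gamma_ON arrays. SCARNA3, or HBI-100, read 6.40 and 6.31 in CTRL, 5.83 and 5.43 in gamma_ON and 5.41 and 5.52 in gamma_OFF, and fell by 0.88 (SE 0.15, adjusted p = 0.0127). SCARNA8, or U92, read 7.55 and 7.44 in CTRL, 6.93 on both gamma_ON arrays and 7.08 and 6.94 in gamma_OFF, and fell by 0.48 (SE 0.12, adjusted p = 0.0404). SCARNA22, or ACA11, lies inside NSD2, a histone methyltransferase gene, and read 10.09 on both CTRL arrays, 10.08 and 10.11 in gamma_ON and 9.64 and 9.68 in gamma_OFF. It fell by 0.43 (SE 0.11, adjusted p = 0.046), with both gamma_OFF arrays below the other 4.

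These 4 calls were lost with single arrays left out. Without CTRL replicate 1 the adjusted p was 0.108 for SCARNA15, 0.0851 for SCARNA3, 0.207 for SCARNA8 and 0.195 for SCARNA22, and without CTRL replicate 2 it was 0.178, 0.0751, 0.163 and 0.223. Without gamma_OFF replicate 2 it was 0.149 for SCARNA15, 0.107 for SCARNA8 and 0.0863 for SCARNA22, and without gamma_OFF replicate 1 it was 0.0501 for SCARNA15. Without either gamma_ON array it was 0.0764 for SCARNA8 and 0.0835 for SCARNA22.

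Over all members, 7 were called lower without gamma_OFF replicate 2, the array with the narrowest signal, when 2.61% of all genes were called in either direction. They were SCARNA1, SCARNA3, SCARNA5, SCARNA7, SCARNA10, SCARNA17 and SCARNA23. The count was 4 without CTRL replicate 1 and 3 without CTRL replicate 2, with 1.27% and 0.88% of all genes called. Without gamma_OFF replicate 1, 12 members were lower and 2 higher, with 23.6% of all genes called. With each array's signals brought to 1 distribution by quantile normalization, 9 members were called, all lower, with 6.32% of all genes called, and the median was -0.46.

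The members that did not pass in gamma_OFF were mostly box H/ACA guides with small differences. SCARNA4 stood at -0.11, SCARNA16 at -0.13, SCARNA18 at 0.03, SCARNA14 at 0.12, SCARNA21 at 0.19, SCARNA20 at 0.30 and SCARNA11 at 0.36, and SCARNA27 at -0.36 (adjusted p = 0.101). The 95% interval reached from -0.41 to 0.14 for SCARNA16 and from -0.28 to 0.35 for SCARNA18, so falls as large as that of SCARNA1 lay outside both. SCARNA11, or ACA57, read 6.33 and 6.13 in CTRL, 6.04 and 6.27 in gamma_ON and 6.12 and 7.06 in gamma_OFF. Its highest value was on gamma_OFF replicate 2. Without gamma_OFF replicate 1 it would be called higher (0.83, adjusted p = 0.0134), and without gamma_OFF replicate 2 its difference was -0.11. SCARNA21, or ACA68, read 7.20 and 7.13 in CTRL and 7.14 and 7.56 in gamma_OFF, and likewise had an adjusted p of 0.049 without gamma_OFF replicate 1 and a difference of -0.02 without gamma_OFF replicate 2.

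**Figure D2:**
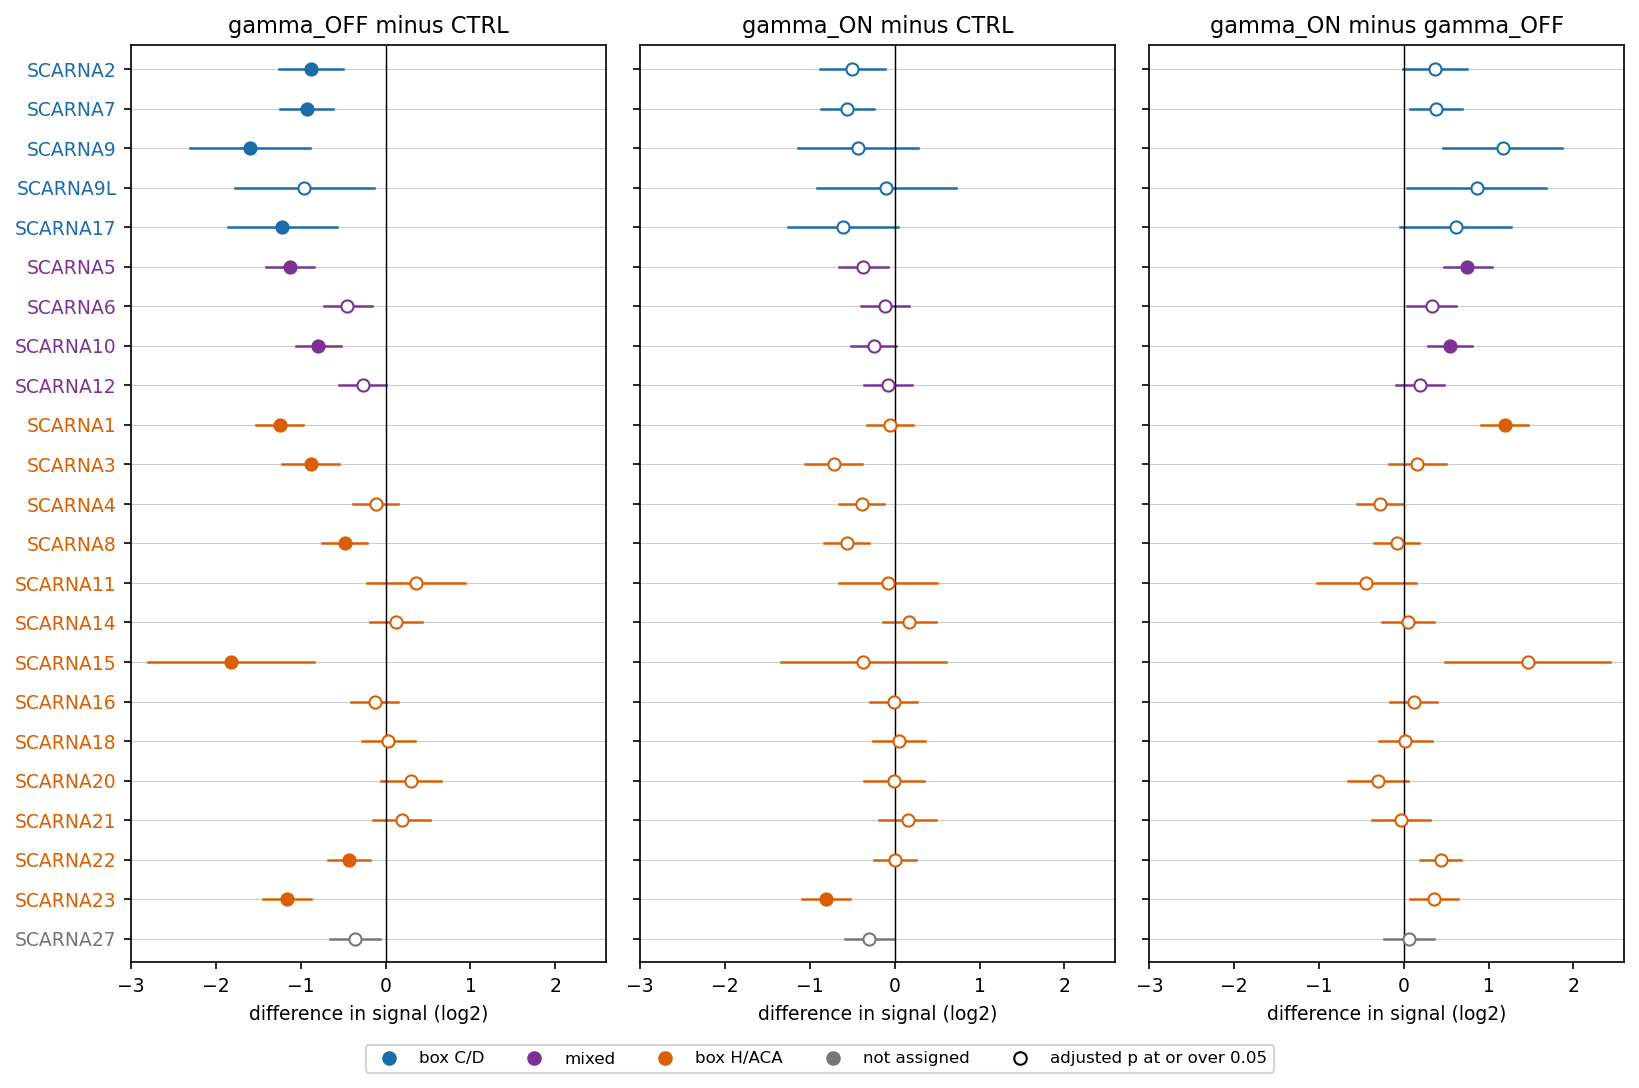
Log2 differences in signal of each Cajal body RNA gene in the 3 comparisons, with 95% intervals from the limma fit over 6 arrays; colour gives the guide type and open circles mark an adjusted p at or over 0.05. In the gamma_OFF panel 12 filled points lie below 0 and none above, whereas the gamma_ON panel has 1 filled point, SCARNA23.

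The comparison of gamma_ON with CTRL addressed added H2A.X with a phosphomimetic residue at S139. Here too, added H2A.X and its substitution cannot be told apart. SCARNA23 fell 1.75-fold in gamma_ON (log2 difference -0.81, SE 0.12, adjusted p = 0.0186), 22 members did not pass and 0 rose (limma; 0 higher and 8 lower at an unadjusted p under 0.05). Over all genes 1.55% were called, 0.806% lower and 0.739% higher. The median of the members was -0.25 against 0.02 for all genes, and 19 of 23 differences were negative. Both gamma_ON arrays lay below both CTRL arrays for 10 of 23 members and above them for 2, against 22.3% and 30% of all genes. The call of SCARNA23 was lost without CTRL replicate 2 (adjusted p = 0.2), gamma_ON replicate 1 (0.17) or gamma_ON replicate 2 (0.113).

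The members nearest to the threshold in gamma_ON were SCARNA3 at -0.72 (SE 0.15, adjusted p = 0.0531), SCARNA8 at -0.56 (SE 0.12, adjusted p = 0.0542) and SCARNA7 at -0.56 (SE 0.14, adjusted p = 0.0915). SCARNA17 stood at -0.61 (SE 0.29, adjusted p = 0.37) and SCARNA2 at -0.50 (SE 0.17, adjusted p = 0.197), both with every gamma_ON array below every CTRL array. In a fit of the 4 CTRL and gamma_ON arrays, which leaves out the more variable gamma_OFF arrays, SCARNA3, SCARNA7, SCARNA8, SCARNA17 and SCARNA23 were called lower, and 3.27% of all genes were called. Leaving out gamma_OFF replicate 1 or 2 alone gave this same fit for gamma_ON and CTRL, so it adds no further check. The box H/ACA guide SCARNA1, which fell in gamma_OFF, had a difference of -0.06 (SE 0.12) in gamma_ON, with a 95% interval from -0.33 to 0.22. SCARNA22 had 0.00 (SE 0.11), and SCARNA4, or ACA26, had -0.39 (adjusted p = 0.157), with 6.87 and 7.0 in gamma_ON against 7.28 and 7.37 in CTRL.

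The comparison of gamma_ON with gamma_OFF tested the difference between the H2A.X vectors directly. SCARNA1, SCARNA5 and SCARNA10 were higher in gamma_ON, 0 of 23 members were called lower (limma; 1 lower at an unadjusted p under 0.05) and 20 did not pass. Over all genes 5.99% were called, 3.98% higher and 2.02% lower. Both gamma_ON arrays lay above both gamma_OFF arrays for 13 of 23 members and below them for 3, against 35.8% and 27.6% of all genes. The median of the members was 0.33, against 0.02 for all genes. Genes with a mean signal of 8 or more had a median of 0.21, and 2755 of 4374 lay above without overlap. Of the 9 members in that band, with a median of 0.44, 8 lay above. From 6 to 8 it was 2 of 9 members and 2186 of 6709 genes, and under 6 it was 3 of 5 and 384 of 3801. SCARNA1 was 2.29-fold higher (log2 difference 1.19, SE 0.12, adjusted p = 0.00238) and was called whichever array was left out. SCARNA5 was higher by 0.75 (SE 0.13, adjusted p = 0.0191) and SCARNA10 by 0.55 (SE 0.12, adjusted p = 0.0391). SCARNA22 at 0.44 (adjusted p = 0.0521), SCARNA9 at 1.17 (adjusted p = 0.058) and SCARNA15 at 1.46 (adjusted p = 0.0707) did not pass. Without gamma_ON replicate 1 the adjusted p was 0.194 for SCARNA5 and 0.282 for SCARNA10, without gamma_ON replicate 2 it was 0.0884 and 0.105, and without gamma_OFF replicate 2 it was 0.0735 and 0.109. SCARNA10 also had 0.0737 without either CTRL array. The count of members called was 10 without gamma_OFF replicate 1, when 27.3% of all genes were called, and 1 without gamma_OFF replicate 2 or without gamma_ON replicate 1.

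Across the 3 groups, limma's moderated F test called 9 of 23 members, against 8.32% of all genes. They were SCARNA1, SCARNA2, SCARNA3, SCARNA5, SCARNA7, SCARNA8, SCARNA9, SCARNA10 and SCARNA23. This count was 3 without either CTRL array, and SCARNA1, SCARNA5 and SCARNA23 were the members called in both cases. The group means ran from CTRL through gamma_ON to gamma_OFF in 15 of 23 members, as in 18% of all genes. In 6 members, SCARNA2, SCARNA5, SCARNA7, SCARNA10, SCARNA17 and SCARNA23, every CTRL array lay above every gamma_ON array and every gamma_ON array above every gamma_OFF array. This held for 6.01% of all genes. Since both comparisons with CTRL use the same 2 CTRL arrays, their differences are not independent of each other.

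The guide types differed in length and signal as well as in their differences, and no test between the types was made. In gamma_OFF the 9 box C/D and mixed members, all longer than any other member, had a median of -0.93 with 6 called lower. The 14 shorter members had a median of -0.25, also with 6 called lower. In gamma_ON the medians were -0.37 and -0.07. The size of the box C/D fall in gamma_OFF depended on replicate 2. The mean signal of the box C/D members was 9.34 and 9.53 in CTRL, and 8.77 and 7.87 on gamma_OFF replicates 1 and 2. That of the mixed members was 8.70 and 8.61 in CTRL and 8.02 and 7.98 in gamma_OFF. That of the box H/ACA members was 6.67 and 6.70 in CTRL and 6.22 and 6.34 in gamma_OFF. Across the 23 members, Pearson's r between length and the gamma_OFF difference was -0.46, that between mean signal and the difference 0.03, and that between length and signal 0.60. These values describe members that share the same arrays, and guide type, length and signal cannot be told apart here.

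The SD of signal over all genes was lower on the gamma_OFF arrays (1.70 and 1.64) than on the other arrays (1.76 to 1.81). The members were therefore set beside genes of like signal. Genes with a mean signal of 8 or more had a median difference of -0.14 in gamma_OFF and 8.34% were called lower, and the 9 members in that band had a median of -0.88 with 6 called lower. Genes with a mean signal under 6 had a median of 0.16 and 2.37% were called lower. The 5 members in that band had a median of -1.16, and SCARNA1, SCARNA3, SCARNA15 and SCARNA23 were called lower while SCARNA14 was not. In the band from 6 to 8, all genes had a median of 0.03 and 6.71% were called lower, and the 9 members had a median of -0.11 with 2 called lower.

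**Figure D3:**
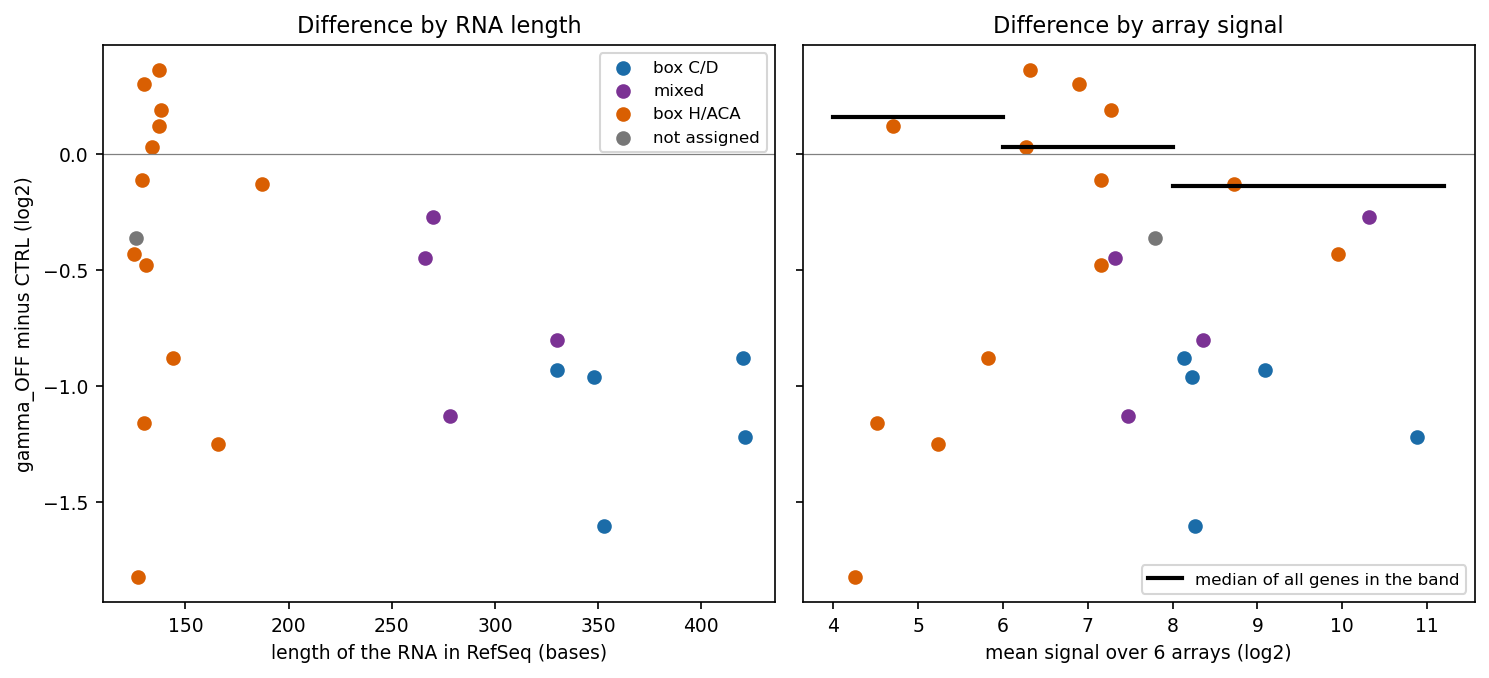
Log2 difference between gamma_OFF and CTRL of each Cajal body RNA gene against the length of the RNA in bases (left) and against its mean signal over 6 arrays (right), with the guide type as colour. Black bars give the median of all genes in 3 bands of signal, 0.16, 0.03 and -0.14; the 9 members in the brightest band had a median of -0.88.

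Of the 23 members, 22 lie within the span of another gene in the RefSeq table, and for 13 of them that gene had a named row, which gave 12 genes because SCARNA5 and SCARNA6 share ATG16L1. The table gives no strand for the members. In gamma_OFF 2 of the 12 spanning genes were called, both lower, and the median of the 12 was -0.15. Over all genes 8.85% were called, 6.08% lower, and the median was 0.01. Genes with a mean signal of 8 or more had a median of -0.14. ATG16L1, an autophagy gene, fell by 0.62 (SE 0.14, adjusted p = 0.0374), beside -1.13 for SCARNA5 and -0.45 for SCARNA6. KHDC4 fell by 0.69 (SE 0.14, adjusted p = 0.0262), beside -0.11 for SCARNA4. CEP295, a centrosome gene around SCARNA9, stood at -0.34 (SE 0.12, adjusted p = 0.0928), and KPNA4, an importin gene around SCARNA7, at -0.16 (SE 0.12, adjusted p = 0.391). NSD2 stood at 0.14 (SE 0.11, adjusted p = 0.426) where SCARNA22 fell. FSD2 stood at 0.33 (SE 0.14, adjusted p = 0.145) where SCARNA15 fell, but SNHG21, the other gene that spans SCARNA15, had no named row. Pearson's r between member and spanning gene over the 13 pairs was -0.06 in gamma_OFF and 0.41 in gamma_ON, as a description of pairs measured on the same arrays. In gamma_ON the 12 spanning genes lay between -0.45 and 0.50, with a median of 0.07.

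**Figure D4:**
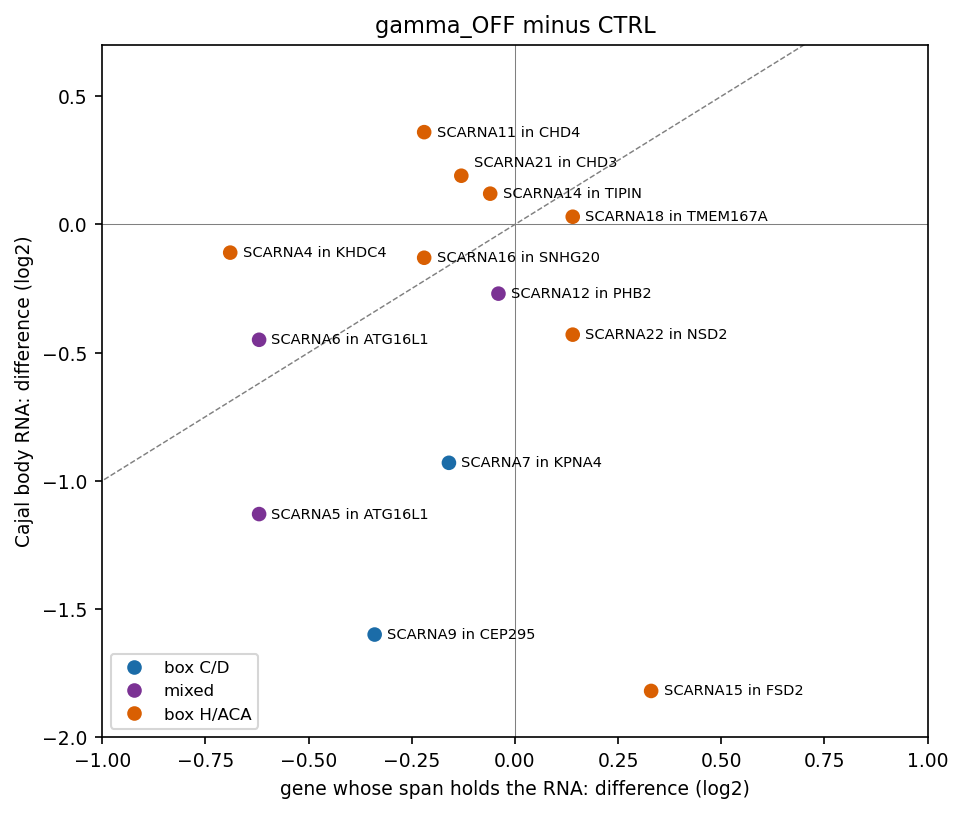
Log2 difference between gamma_OFF and CTRL of 13 Cajal body RNA genes (vertical axis) against that of the gene whose span holds them (horizontal axis), with the guide type as colour and a dashed line where both are equal. The spanning genes lie between -0.69 and 0.33, while SCARNA5, SCARNA7, SCARNA9 and SCARNA15 lie between -0.93 and -1.82.

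Genes for the proteins that bind, assemble or localise such guides did not pass in either comparison with CTRL (limma; 1 lower and 1 higher in gamma_OFF and 2 higher in gamma_ON at an unadjusted p under 0.05, all assembly factors). Over all genes 8.85% were called in gamma_OFF and 1.55% in gamma_ON. Lists this short could therefore hold 0 calls without differing from all genes. The measured core proteins of box C/D particles were FBL, the methyltransferase, NOP58 and SNU13, and in gamma_OFF they stood between -0.10 and 0.05. GAR1, NHP2 and NOP10, core proteins of box H/ACA particles, stood between -0.16 and 0.24. Of 9 measured assembly factors 0 were called, with a median of -0.08 and NAF1, an H/ACA assembly factor, lowest at -0.45 (SE 0.17, adjusted p = 0.118). Of 5 measured Cajal body and nucleolar genes 0 were called, and COIL, which encodes the Cajal body marker coilin, stood at -0.15 (SE 0.12, adjusted p = 0.445). In gamma_ON the medians of these 4 lists lay between 0.01 and 0.19. Between gamma_ON and gamma_OFF 0 were called as well, against 5.99% of all genes. All 9 assembly factors were higher in gamma_ON there, with a median of 0.20, against 0.02 for all genes. The smallest adjusted p values there (limma) were 0.078 for SHQ1 (0.50), 0.0901 for NHP2 (0.39) and 0.0972 for COIL (0.35). DKC1, NOP56, WRAP53 and SMN1 had no named row and are not analysed here.

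Other noncoding RNA genes were counted in the same way. Of 12 measured noncoding host genes of nucleolar or Cajal body RNAs, SNHG10 (-0.56, SE 0.12, adjusted p = 0.0291) and SNHG15 (-0.51, SE 0.11, adjusted p = 0.0301) fell in gamma_OFF, 10 did not pass, and the median was -0.34. Among the 12, SNHG20 spans the member SCARNA16 and stood at -0.22 (SE 0.13, adjusted p = 0.259). ZFAS1 stood at -0.62 (adjusted p = 0.0799) and GAS5 at -0.53 (adjusted p = 0.0869). Over all genes 6.08% were called lower and 2.77% higher in gamma_OFF, with a median of 0.01. In gamma_ON these shares were 0.806% and 0.739%, with a median of 0.02. Of 1072 microRNA genes, 5.04% were called lower and 6.44% higher in gamma_OFF, with a median of 0.14, and 2.61% lower and 0.373% higher in gamma_ON, with a median of -0.05. Of 4 vault RNA genes 0 were called in either comparison (limma; 1 higher in each at an unadjusted p under 0.05). TERC, the telomerase RNA, which holds an H/ACA domain and visits Cajal bodies, stood at 0.39 (SE 0.13, adjusted p = 0.0944) in gamma_OFF and -0.23 (adjusted p = 0.487) in gamma_ON, and was lower in gamma_ON than in gamma_OFF (-0.62, adjusted p = 0.0419). RMRP and RPPH1, the RNAs of the RNase MRP and RNase P enzymes, stood at -0.33 (adjusted p = 0.132) and -0.17 (adjusted p = 0.422) in gamma_OFF and at -0.22 (adjusted p = 0.487) and -0.16 (adjusted p = 0.651) in gamma_ON. These 3 RNAs were named after their values were seen.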

How the data were processed

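The deposited values are log2 signals per array row for 6 arrays; the submitters' processing notes name RMA and Partek 6.6, without the order of steps, a genome build or an annotation version. That the scale is log2 follows from the range of the values. Of 53617 rows, 16098 had 1 gene symbol in the platform table, 0 had several and 37519 were unnamed here; the brightest row per symbol left 14884 genes. RefSeq entries (GRCh38.p14) gave lengths for all 23 members and spanning genes for 22. Groups came from the sample descriptions.

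A single limma 3.58.1 fit in R 4.3.3 (lmFit, eBayes) over 6 arrays had 3 residual and 6.05 prior degrees of freedom. Tests were two-sided, with Benjamini-Hochberg adjustment over all genes and calls under 0.05. With 2 arrays against 2, the smallest p of an exact permutation test is 0.333, so none was run. The members, lists and tests were chosen with earlier results of these data known. Guide types and the split by length were set after the rows were seen. Every called member is named, with the brightest and dimmest.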

Additional observations from a re-analysis of the deposited data

How the results depend on the processing

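Called members kept their direction under all alternatives run, and 0 called values reversed. Members called for gamma_OFF against CTRL numbered 5, all lower, when all 53617 rows were tested, and 3 to 14 with single arrays left out, where the 14 were 12 lower and 2 higher. With all rows tested, 1.95% of rows were called for gamma_OFF against CTRL. For gamma_ON against CTRL, members called numbered 5 in a fit of 4 arrays, 3 with trend and robust fitting and 5 with array weights. The shares of all genes called were 3.27%, 2.56% and 5.4%. With all rows tested the count was 0 (limma, 7 at an unadjusted p under 0.05), with 0.166% of rows called. At a threshold of 0.10 it was 4, with 3.41% of all genes called. With dim genes left out, 15 members remained and SCARNA23 was not among them. Of these, 2 were called, SCARNA7 and SCARNA8, as were 4.18% of the genes that remained. For gamma_ON against gamma_OFF it was 0 with all rows tested (9 at an unadjusted p), 7 at a threshold of 0.10 and 1 to 10 with single arrays left out. For gamma_ON against gamma_OFF, 0.104% of rows were called with all rows tested, and 21% of all genes at the threshold of 0.10. The F test called 3 members with all rows tested, and 0.977% of rows. The median for gamma_ON against gamma_OFF was 0.24 after quantile normalization and 0.20 to 0.31 with single arrays left out. With the replicate number as a block (replicate block), the counts were 1, 11, 3 and 11 (gamma_ON, gamma_OFF, gamma_ON against gamma_OFF, F). The shares of all genes called were 1.41%, 8.36%, 5.85% and 7.85%. Deviations of same-numbered arrays correlated at -0.0962, -0.0735 and 0.088. With 1 deviation per group, these values cannot tell whether same-numbered samples share more than a number. The planned medians of SNORA and SNORD classes had no members. Of 1080 single-member values under alternatives, 943 kept side and direction, 65 lost and 44 gained a call, and 28 changed sign without a call before or after.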
